A study of Sus scrofa with 8 samples.

Results

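The genes whose names start with TIMM or TOMM encode the translocases that carry proteins made in the cytosol into mitochondria. They were taken as all rows of the deposited gene table with such a name, which gave 24 of 31014 rows, 10 TOMM and 14 TIMM. The table holds RNA-seq counts of heart tissue from wild-type miniature pigs, 3 samples given vehicle and 5 given doxorubicin, an anthracycline used against cancer that is known to injure the heart. All 8 samples share the wild-type genotype and the tissue. The sources used here give no dose, schedule, age, sex or heart chamber. The title of the series places the samples in a study of the nuclear receptor ERRα and mitochondrial metabolism in anthracycline cardiotoxicity, and the comparison asks how the heart transcriptome of doxorubicin pigs differed from that of vehicle pigs. Nothing in the labels ties the samples to separate animals, so the p-values speak only of the spread among these samples, and that spread may be technical.

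Most mitochondrial proteins are encoded in the nucleus and enter as unfolded precursors. The translocase of the outer membrane, TOM, recognises them with receptors and passes them through a pore. The TIM23 complex of the inner membrane then takes precursors with a cleavable presequence into the matrix, while the small TIM chaperones escort hydrophobic carriers across the intermembrane space to the TIM22 complex, which inserts them into the inner membrane. Cardiac muscle is rich in mitochondria and depends on this supply.

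Library totals ran from 16105242 to 18267178 counts. Doxorubicin 5 was the least like its group, at a mean correlation of 0.912 with its fellows where doxorubicin 1 to 4 reached 0.941 to 0.956. The share of counts from mitochondrial DNA genes was 25.3% ± 1.99 in vehicle libraries and 12.8% ± 2.83 in doxorubicin libraries (SD, n = 3 and n = 5). Of 8 listed cardiomyocyte markers 7 were found under their symbols, and their summed level, in CPM (counts scaled to a common library size with TMM factors), was 55934 to 62110 in vehicle and 32089 to 57645 after doxorubicin, with 2 of the 7 lower. Summed fibroblast markers went from 1228 to 1435 CPM in vehicle to 2460 to 31363 CPM after doxorubicin, highest in doxorubicin 5, with 4 of 7 markers higher and 1 lower. Macrophage markers went from 109 to 149 CPM to 167 to 449 CPM (4 of 6 higher), and T and NK cell markers from 4.93 to 8.75 CPM to 14.5 to 31.0 CPM (5 of 5 higher). Adipocyte markers went from 257 to 411 CPM to 36.8 to 142 CPM (2 of 2 tested lower), smooth muscle and pericyte markers from 515 to 1145 CPM to 566 to 4280 CPM (2 of 6 higher and 1 lower), and endothelial markers from 1150.4 to 1516 CPM to 444 to 1398 CPM (1 of 6 lower). Red blood cell markers were at 39.0 to 96.8 and 6.60 to 86.8 CPM, and Schwann cell markers at 31.8 to 47.0 and 31.3 to 43.1 CPM. No listed marker that was found was at 0 in all libraries. Markers counted as higher or lower are calls as defined in the next paragraph, by which 13.6% of all tested genes were higher and 11.3% lower. In bulk tissue, fewer cells of a type and less RNA per cell cannot be told apart, and the part of these marker changes in the results on TIMM and TOMM genes was not tested.

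Across the family, 5 genes fell after doxorubicin, 1 rose and 16 did not pass the test, of 22 with enough reads to be tested. The 5 were the TOM receptors TOMM20 and TOMM70, the TIM23 subunit TIMM21 and the small chaperones TIMM9 and TIMM8A. The 1 that rose was TIMM17A, a channel subunit of TIM23. A call here is a Benjamini-Hochberg adjusted p under 0.05 over all 14938 tested genes in edgeR's quasi-likelihood test. By that rule 24.9% of all tested genes were called, 13.6% higher and 11.3% lower. The share of TIMM and TOMM genes called in either direction, 6 of 22, lay near the background. By direction it was 5 of 22 lower, against 11.3%, and 1 of 22 higher, against 13.6%. The set as a whole was not tested. Fold changes were negative for 16 of the 22. Their median on the log2 scale was −0.31, and that of all tested genes was 0.02. An unadjusted p under 0.05 was reached by 11 of the 22, against 40.8% of all tested genes. The CPM ranges of the groups did not overlap for 10 members that were lower and 1 that was higher, against 17.8% and 17.1% of all tested genes. Fold changes were also negative for 22 of 33 tested genes of the other import machinery and 54 of 75 mitochondrial ribosomal protein genes. The share over all tested genes was 48.8%. An unadjusted p under 0.05 was reached by 15 of the 33. CPM ranges did not overlap for 12 lower and 1 higher of the 33, and for 31 lower and 3 higher of the 75. The lean to lower values was thus not particular to TIMM and TOMM genes. Both families are described further on.

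The balance of directions rested on the scaling of libraries. Summed over all 24 rows, the level was 1263 ± 118 CPM in vehicle and 947 ± 126 CPM after doxorubicin (SD, n = 3 and n = 5), but as a share of all counts it was 0.108% ± 0.00918 and 0.103% ± 0.00979. Scaled by library size only, 3 members were higher and 1 was lower, with a median log2 fold change of 0.04 where all tested genes had 0.38, and 27.4% of all tested genes were called higher and 3.34% lower. A change of scaling moves all genes by nearly the same amount. The distance between the members' median and that of all genes was thus bound to stay similar and is no check on the scaling. The direction of single genes near 0 did change. Without vehicle 3 no member passed in edgeR, 9 having an unadjusted p under 0.05, and without vehicle 1 a single member passed as lower (TIMM9). Only 4.61% and 4.19% of all tested genes were called in those fits. Without vehicle 2 the counts were 1 higher and 3 lower (12.7% of all tested genes called), without doxorubicin 2 they were 0 and 5 (17.1%), and without doxorubicin 5 they were 2 and 8 (32.3%). DESeq2 called 1 higher and 9 lower where it called 33.2% of all genes, and limma voom 3 and 9 where it called 54.1%.

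**Figure D1:**
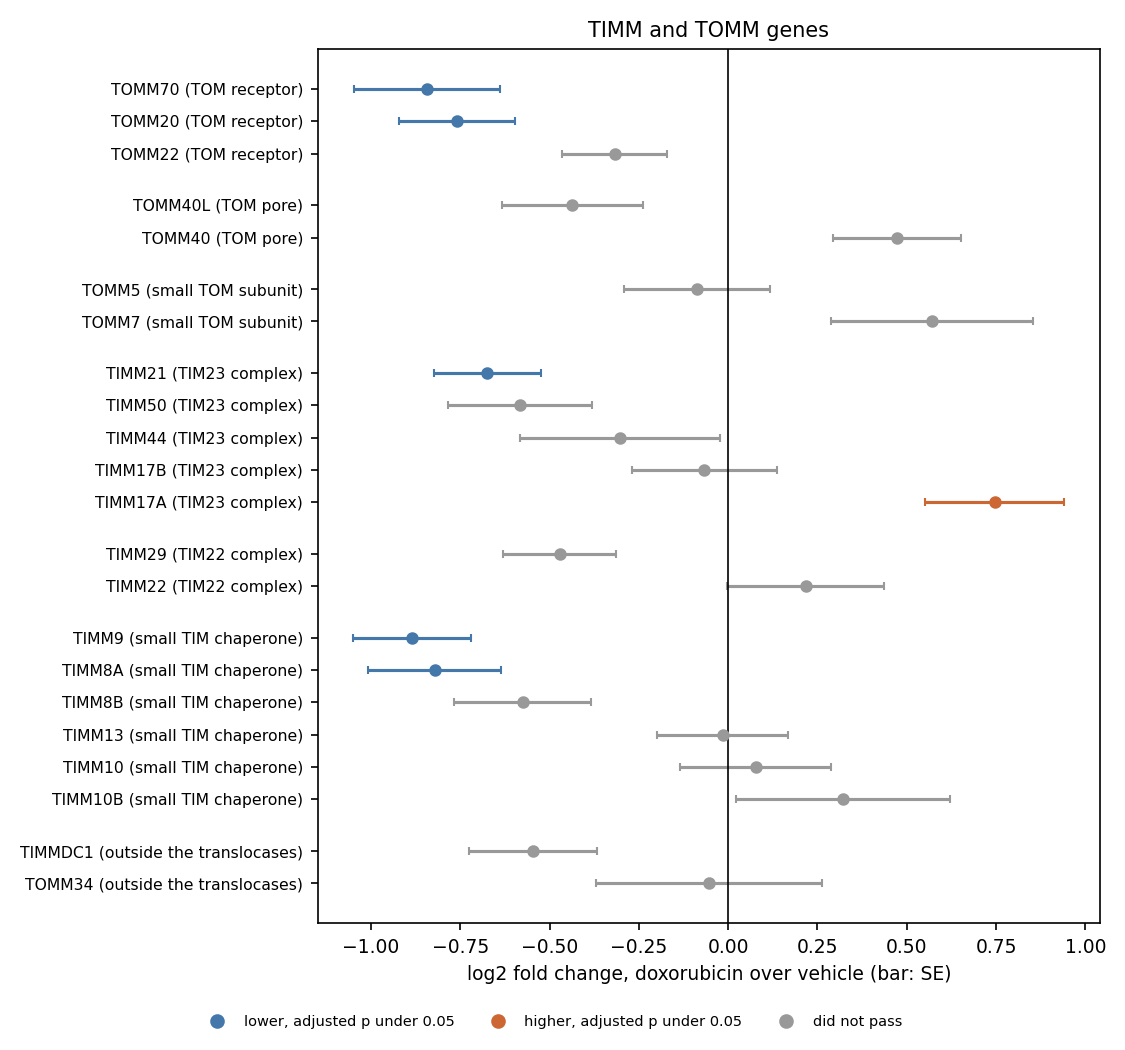
Log2 fold change of doxorubicin over vehicle (horizontal axis) for the 22 tested TIMM and TOMM genes, grouped by role; bars are standard errors, blue marks genes that fell, orange genes that rose and grey genes that did not pass. The 5 blue points lie between −0.88 and −0.67, and TIMM17A, the only orange point, lies at 0.75.

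Of the 3 tested TOM receptors 2 fell, and the third, TOMM22, had the smallest fold change and did not pass. TOMM20, the receptor for cleavable presequences (chromosome 14, 56113087 to 56127686, protein-coding, Sscrofa11.1), was at 284, 302 and 292 CPM in vehicle 1 to 3. In doxorubicin 1 to 5 it was at 199.5, 179, 146, 187 and 153 CPM. Every doxorubicin library lay below every vehicle library. Means were 293 ± 8.76 and 173 ± 22.6 CPM (SD, n = 3 and n = 5), a 1.69-fold fall, or −0.76 in log2 units (SE 0.16, adjusted p = 0.0128 in edgeR). TOMM70, the receptor that takes carrier precursors from cytosolic chaperones (chromosome 13, 158577026 to 158629878, protein-coding), was at 191, 219 and 191 CPM in vehicle. The doxorubicin libraries had 122, 119.7, 77.4, 143 and 96.1 CPM, again with no overlap and with the lowest value in doxorubicin 3. It fell by 0.84 on the log2 scale (SE 0.20, adjusted p = 0.0188 in edgeR).

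TOMM22, the receptor that also holds the complex together (chromosome 5, 9336114 to 9339867, protein-coding), was at 37.9, 41.3 and 41.9 CPM in vehicle. Doxorubicin 1 to 5 had 37.2, 29.7, 28.5, 29.4 and 37.3 CPM. Doxorubicin 1 and 5 lay just under the lowest vehicle library and the other 3 well under it. Its log2 fold change, −0.32 (SE 0.15), did not pass (adjusted p = 0.133 in edgeR), and scaled by library size only it was 0.036. It passed in limma voom (−0.43, adjusted p = 0.00296) and with each library's trend with local gene density removed (−0.53, adjusted p = 0.0376). TOMM22 shares 562 bases with JOSD1 on the other strand, a row with a mean of 523.5 reads and a log2 fold change of 0.39. A locus that the deposited table describes as a TOM22 homolog (LOC100739656, chromosome 13) had 0 reads in every library. Whether it shares reads with TOMM22 was not tested. TOMM20L, a paralog of TOMM20, had 0 to 12 reads per library and was not tested. The call of TOMM20 was lost without vehicle 1 (adjusted p = 0.0555) or vehicle 3 (0.0610), and that of TOMM70 without vehicle 1 (0.0684), vehicle 2 (0.0676) or vehicle 3 (0.0686). With library size only TOMM20 had an adjusted p of 0.0602 and TOMM70 of 0.0673 in edgeR.

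The pore genes had fold changes of opposite sign and neither passed in edgeR, 1 having an unadjusted p under 0.05. DESeq2 called 0 of the 2 and limma voom 1. Of all tested genes 40.8% had an unadjusted p under 0.05, DESeq2 called 33.2% and limma voom 54.1%. These shares also stand beside the subgroup counts that follow. TOMM40, the barrel that forms the outer membrane pore (chromosome 6, 51359948 to 51369932, protein-coding), was at 30.8, 38.8 and 36.3 CPM in vehicle. After doxorubicin it was at 54.6, 57.5, 42.2, 52.9 and 37.5 CPM. Doxorubicin 1 to 4 were above all vehicle libraries and doxorubicin 5 lay within their range. The log2 fold change was 0.47 (SE 0.18, adjusted p = 0.0790 in edgeR), and it passed without doxorubicin 5 (0.56, adjusted p = 0.0197), with library size only (0.82, adjusted p = 0.00801) and in limma voom (0.59, adjusted p = 0.000964). With the density trend removed it was 0.16. TOMM40L, the paralog of TOMM40, was at 41.4 to 47.7 CPM in vehicle and 24.4 to 39.3 CPM after doxorubicin, −0.44 in log2 units (SE 0.20, adjusted p = 0.125 in edgeR). Its groups did not overlap, and it passed with the density trend removed (−0.74, adjusted p = 0.0333). With library size only it was −0.087 (adjusted p = 0.747 in edgeR). TOMM40L shares 1053 bases with NR1I3 on the other strand. The sources used here do not say whether counting used the strand, so reads of such pairs cannot be told apart.

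Of the 2 tested small TOM subunits, which stabilise the pore, none passed in edgeR or DESeq2, none had an unadjusted p under 0.05, and limma voom called 1. TOMM7 was at 24.7, 33.4 and 24.0 CPM in vehicle and at 52.5, 52.2, 24.6, 28.3 and 46.0 CPM after doxorubicin. Its doxorubicin libraries split, with 1, 2 and 5 above all vehicle libraries and 3 and 4 within the vehicle range. The log2 fold change of 0.57 (SE 0.28) had an adjusted p of 0.156 in edgeR, and it passed with library size only (0.92, adjusted p = 0.0287) and in limma voom (0.75, adjusted p = 0.0110). TOMM5 was at 30.5 to 45.5 CPM in vehicle and 30.2 to 49.9 CPM after doxorubicin, with full overlap. The row of TOMM6 had 0 reads in every library, which allows up to 0.0215 CPM over the 8 libraries together (counting error only). All 401 bases of that row lie within PRICKLE4 on the same strand, a row with a mean of 675 reads, so its reads and those of PRICKLE4 cannot be told apart.

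**Figure D2:**
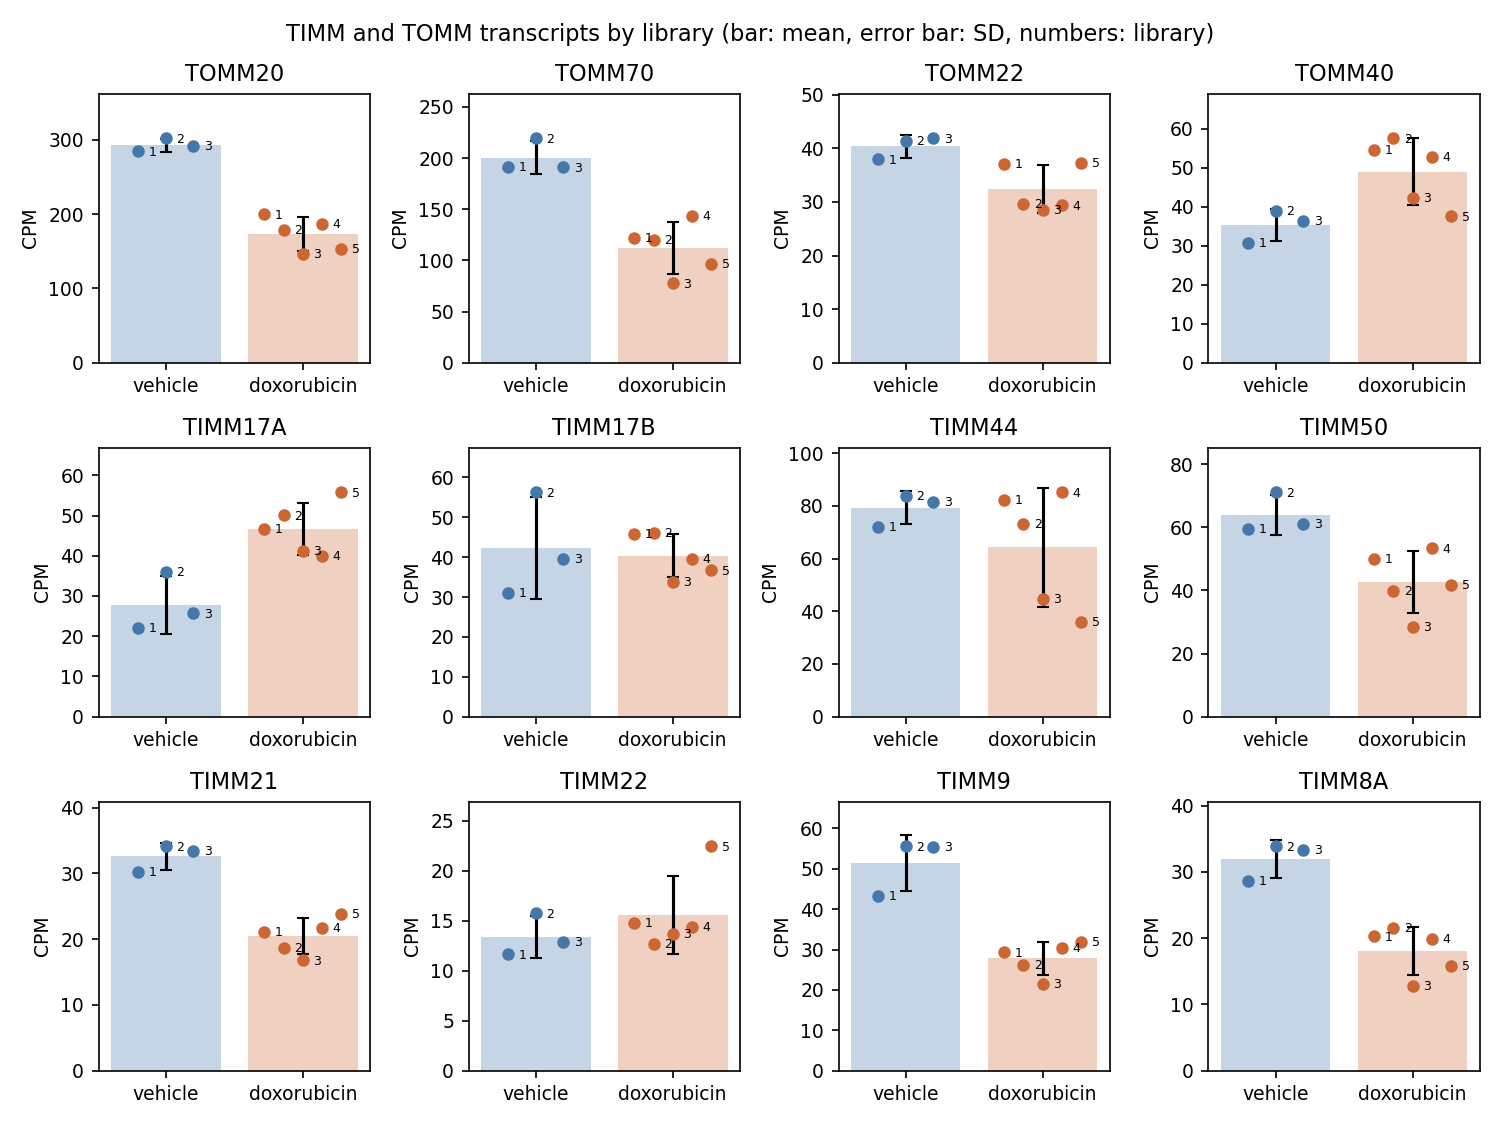
Level of 12 TIMM and TOMM genes in CPM (vertical axis, from 0) in vehicle (blue, n = 3) and doxorubicin (orange, n = 5) libraries; bars are means, error bars SD, and small numbers name the library. TOMM20, TOMM70, TIMM21, TIMM9 and TIMM8A lie lower in all 5 doxorubicin libraries, and so do TIMM50 and TOMM22, which did not pass. TIMM17A lies higher in all 5, and TIMM44 is low in doxorubicin 3 and 5 alone.

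Within the TIM23 complex 1 subunit rose, 1 fell and 3 did not pass. TIMM17A, a channel subunit (chromosome 10, 24200345 to 24211790, protein-coding), was at 22.0, 35.9 and 25.7 CPM in vehicle. After doxorubicin it was at 46.7, 50.01, 41.3, 39.9 and 55.8 CPM, so that the lowest doxorubicin library exceeded the highest vehicle library. Means were 27.9 ± 7.21 and 46.7 ± 6.50 CPM (SD, n = 3 and n = 5), a 1.68-fold rise, or 0.75 in log2 units (SE 0.20, adjusted p = 0.0241 in edgeR). Its paralog TIMM17B (chromosome X, 42970586 to 42976287, protein-coding), which takes the same place in other copies of the complex, was at 31.0, 56.2 and 39.6 CPM in vehicle. After doxorubicin it was at 45.7, 46.1, 33.9, 39.6 and 36.7 CPM. All of these lay within the vehicle range, and the log2 fold change was −0.07 (SE 0.20, adjusted p = 0.831 in edgeR). It was 0.29 with library size only. TIMM17B shares 202 bases with PQBP1 on the other strand.

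TIMM21, which joins TIM23 to the TOM complex and to the respiratory chain (chromosome 1, 149845189 to 149855903, protein-coding), was at 30.3, 34.1 and 33.4 CPM in vehicle. It was at 21.1, 18.7, 16.8, 21.7 and 23.9 CPM after doxorubicin. The groups did not overlap, and it fell by 0.67 on the log2 scale (SE 0.15, adjusted p = 0.0147 in edgeR). TIMM50, the receptor that meets presequences as they leave TOM (chromosome 6, 48126470 to 48134664, protein-coding), was at 59.5, 71.1 and 61.2 CPM in vehicle and at 50.1, 39.9, 28.3, 53.3 and 41.9 CPM after doxorubicin. All doxorubicin libraries were below all vehicle libraries, but its log2 fold change of −0.58 (SE 0.20) just missed the threshold (adjusted p = 0.0588 in edgeR). It passed in DESeq2 (adjusted p = 0.0423), in limma voom (0.00599), without doxorubicin 4 (0.0430) and with the density trend removed (−0.93, adjusted p = 0.0181). With library size only it was −0.23 and far from passing (adjusted p = 0.348 in edgeR).

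TIMM44, which tethers the import motor to the channel (chromosome 2, 71271778 to 71287795, protein-coding), was at 72.2, 84.0 and 81.6 CPM in vehicle. After doxorubicin it was at 82.3, 73.2, 44.7, 85.2 and 36.0 CPM. Doxorubicin 1 and 2 lay within the vehicle range and doxorubicin 4 just above it, while doxorubicin 3 and 5 were far below it, and the log2 fold change of −0.30 (SE 0.28) did not pass (adjusted p = 0.444 in edgeR). It was 0.04 with library size only. Summed cardiomyocyte markers were also lowest in doxorubicin 3 and 5, at 37013 and 32089 CPM, against 48076 to 57645 CPM in the other doxorubicin libraries. So were endothelial (800 and 444 CPM) and adipocyte markers (47.5 and 36.8 CPM), while fibroblast markers were highest there (7225 and 31363 CPM). The part of any of these in the TIMM44 values was not tested. No row carried the name TIMM23 or PAM16, and loci described as these subunits were looked up after the values were seen. A locus that the deposited table describes as subunit Tim23 (LOC100157391, chromosome 14, 90480955 to 90506134) was at 81.1 to 95.2 CPM in vehicle and 46.7 to 72.1 CPM after doxorubicin, −0.51 in log2 units (SE 0.17), at an adjusted p of 0.0499 in edgeR. A locus described as the motor subunit TIM16 (LOC100513346, chromosome 3, 37928098 to 38005619) was at 40.1 to 65.0 and 48.0 to 60.4 CPM, 0.06 in log2 units (SE 0.18), and did not pass (adjusted p = 0.827 in edgeR). The call of TIMM17A was lost without vehicle 1 (adjusted p = 0.109), vehicle 3 (0.105) or doxorubicin 2 (0.0505), and that of TIMM21 without vehicle 1 (0.0534) or vehicle 3 (0.0669), with library size only (0.119) and with the density trend removed (0.0668).

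The TIM22 complex had no member past the threshold in edgeR, while DESeq2 and limma voom each called 1 of 2 and 1 had an unadjusted p under 0.05. TIMM22, its insertion channel (chromosome 12, 46897580 to 46903210, protein-coding), was at 11.6, 15.7 and 12.9 CPM in vehicle and at 14.8, 12.7, 13.7, 14.4 and 22.5 CPM after doxorubicin. Doxorubicin 5 alone lay above the vehicle range, and the log2 fold change was 0.22 (SE 0.22, adjusted p = 0.484 in edgeR). TIMM29, a subunit found in animals that links TIM22 to TOM, was at 24.1 to 31.3 CPM in vehicle and 16.0 to 21.6 CPM after doxorubicin, without overlap. Its log2 fold change of −0.47 (SE 0.16) had an adjusted p of 0.0538 in edgeR, and it passed without doxorubicin 5 (0.0333), in DESeq2 (0.0381), in limma voom (0.0101) and with the density trend removed (0.0131). With library size only it was −0.12 and far from passing (adjusted p = 0.572 in edgeR).

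Among the 6 small TIM chaperones, which work as hexamers of TIMM9 with TIMM10 or of TIMM8A with TIMM13, 2 fell and 4 did not pass. TIMM9 (chromosome 1, 187485407 to 187504452, protein-coding) was at 43.3, 55.5 and 55.4 CPM in vehicle. It was at 29.3, 26.1, 21.6, 30.4 and 31.8 CPM after doxorubicin, each below all vehicle libraries. Means were 51.4 ± 7.03 and 27.8 ± 4.08 CPM (SD, n = 3 and n = 5), a 1.85-fold fall, or −0.88 in log2 units. Its SE was 0.16 and its adjusted p of 0.00885 in edgeR was the smallest of the 22. TIMM9 shares 10634 bases with TOMM20L on the other strand, a row with a mean of 6.63 reads per library against 615.5 for TIMM9. TIMM8A, whose loss in people causes deafness with dystonia (chromosome X, 82978128 to 82981038, protein-coding), was at 28.6, 33.8 and 33.3 CPM in vehicle. It was at 20.2, 21.5, 12.8, 19.9 and 15.8 CPM after doxorubicin, without overlap, and fell by 0.82 on the log2 scale (SE 0.19, adjusted p = 0.0155 in edgeR).

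The partners and paralogs of these chaperones did not pass in edgeR, while DESeq2 and limma voom each called 3 of the 6 chaperones. TIMM13, the hexamer partner of TIMM8A, was at 48.8, 71.7 and 59.6 CPM in vehicle and at 67.9, 64.5, 44.2, 59.9 and 60.6 CPM after doxorubicin, −0.02 in log2 units (SE 0.18) and 0.34 with library size only. TIMM10, the hexamer partner of TIMM9, which the deposited table lists as an lncRNA, was at 13.9 to 18.8 CPM in vehicle and 13.5 to 24.2 CPM after doxorubicin (log2 fold change 0.08, SE 0.21, adjusted p = 0.810 in edgeR). TIMM10B, which docks the chaperones on TIM22, was at 6.57 to 11.2 and 7.05 to 16.7 CPM. TIMM8B, the paralog of TIMM8A, was at 83.1, 111 and 135 CPM in vehicle and at 79.5, 72.4, 56.1, 75.9 and 83.8 CPM after doxorubicin. Its groups overlapped by vehicle 1 and doxorubicin 5. The log2 fold change, −0.58 (SE 0.19, adjusted p = 0.0530 in edgeR), passed without doxorubicin 5 (0.0283), in DESeq2 (0.0308), in limma voom (0.00129) and with the density trend removed (0.0326). With library size only it was −0.23 and far from passing (adjusted p = 0.376 in edgeR). The call of TIMM9 was lost only without vehicle 3 among the single libraries left out (adjusted p = 0.0526), and that of TIMM8A without vehicle 1 (0.0539), vehicle 2 (0.0525) or vehicle 3 (0.0699) and with library size only (0.0617).

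The rule also took 2 genes that are not translocase subunits. TIMMDC1, an assembly factor of respiratory complex I, was at 14.2 to 19.3 CPM in vehicle and 8.92 to 12.98 CPM after doxorubicin, without overlap. Its log2 fold change of −0.55 (SE 0.18) had an adjusted p of 0.0503 in edgeR and passed without doxorubicin 5 (0.0489), in DESeq2 (0.0320) and with the CPM filter (0.0482). It did not pass in limma voom (−0.31, adjusted p = 0.0692) or with library size only (−0.19, adjusted p = 0.418 in edgeR). TOMM34, a cytosolic co-chaperone of precursors, was at 2.98 to 3.36 CPM in vehicle and 2.24 to 4.85 CPM after doxorubicin, −0.05 in log2 units (SE 0.32).

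Levels between genes were compared per kilobase of the gene length in the deposited table. In vehicle hearts TIMM8B was first, at 189 ± 44.8 CPM per kilobase (SD, n = 3), followed by TOMM20 at 86.4 ± 2.58. TOMM5 at 67.7 ± 13.4, TOMM7 at 64.2 ± 12.3 and TIMM13 at 62.4 ± 11.9 CPM per kilobase came next and did not differ from each other beyond their spread. TIMM44 was at 41.2 ± 3.25 CPM per kilobase, and TIMM17B, TIMM9, TIMM50 and TIMM17A lay between 29.8 and 35.5. TOMM70, second in CPM, was at 24.6 ± 2.00 CPM per kilobase, close to TIMM10 at 23.3 ± 3.58. TOMM22 at 14.1 ± 0.744 lay well under the receptors TOMM20 and TOMM70. TIMM22 was at 9.85 ± 1.54 CPM per kilobase, and TOMM20L came last among rows with reads, at 0.637 ± 0.145. After doxorubicin TIMM17A was at 49.9 ± 6.94 CPM per kilobase (SD, n = 5), above TIMM17B at 33.9 ± 4.57, where the order in vehicle was the reverse within the spread.

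Ratios between transcripts of the same library do not depend on how libraries are scaled. They were taken for 7 pairs of genes as ratios of counts, not corrected for length, and compared by a two-sided exact permutation test over all 56 splits, where the smallest p is 0.0357. TIMM17A was at 0.71, 0.639 and 0.648 times TIMM17B in vehicle and at 1.02, 1.08, 1.22, 1.01 and 1.52 times after doxorubicin. TIMM17B thus had more reads in all 3 vehicle libraries and TIMM17A in all 5 doxorubicin libraries. The ratio was 1.74-fold higher after doxorubicin (exact permutation p = 0.0357, adjusted p = 0.0625 over 7 ratios).

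TOMM40 was at 0.743, 0.814 and 0.865 times TOMM40L in vehicle and at 1.604, 1.47, 1.73, 1.35 and 1.53 times after doxorubicin, 1.90-fold higher with no overlap. Corrected for length, TOMM40 was the higher of the pair in both groups, at 20.3 and 14.4 CPM per kilobase in vehicle and 28.1 and 10.7 after doxorubicin. TIMM9 was at 3.10, 3.09 and 2.95 times its partner TIMM10 in vehicle. After doxorubicin it was at 1.64, 1.42, 1.43, 2.24 and 1.31 times TIMM10, 0.518 of the vehicle ratio, with no overlap. TOMM20 was at 6.97 to 7.49 times TOMM22 in vehicle and at 4.11 to 6.36 times after doxorubicin, 0.736 of the vehicle ratio. Each of these 3 had the smallest p of the exact permutation test (0.0357, adjusted p = 0.0625), and no ratio passed after adjustment. At this number of samples a ratio could pass only if nearly all of the 7 reached that smallest p. That none passed therefore says nothing on the size of the shifts. Among single tested genes the CPM ranges of the groups did not overlap for 34.9%. How often ratios of other gene pairs keep the groups apart is not given here, so the separation is not a trait of these pairs.

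For the remaining pairs the groups overlapped. TOMM20 was at 1.38 to 1.53 times TOMM70 in vehicle and 1.30 to 1.89 times after doxorubicin (exact permutation p = 0.429), so the receptors that fell did so without a detectable shift between them at this number of samples. TIMM8A was at 0.247 to 0.344 times TIMM8B in vehicle and 0.189 to 0.297 times after doxorubicin (exact permutation p = 0.214). TIMM10 was at 1.597 to 2.46 times TIMM10B and 1.32 to 2.14 times (exact permutation p = 0.357).

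**Figure D3:**
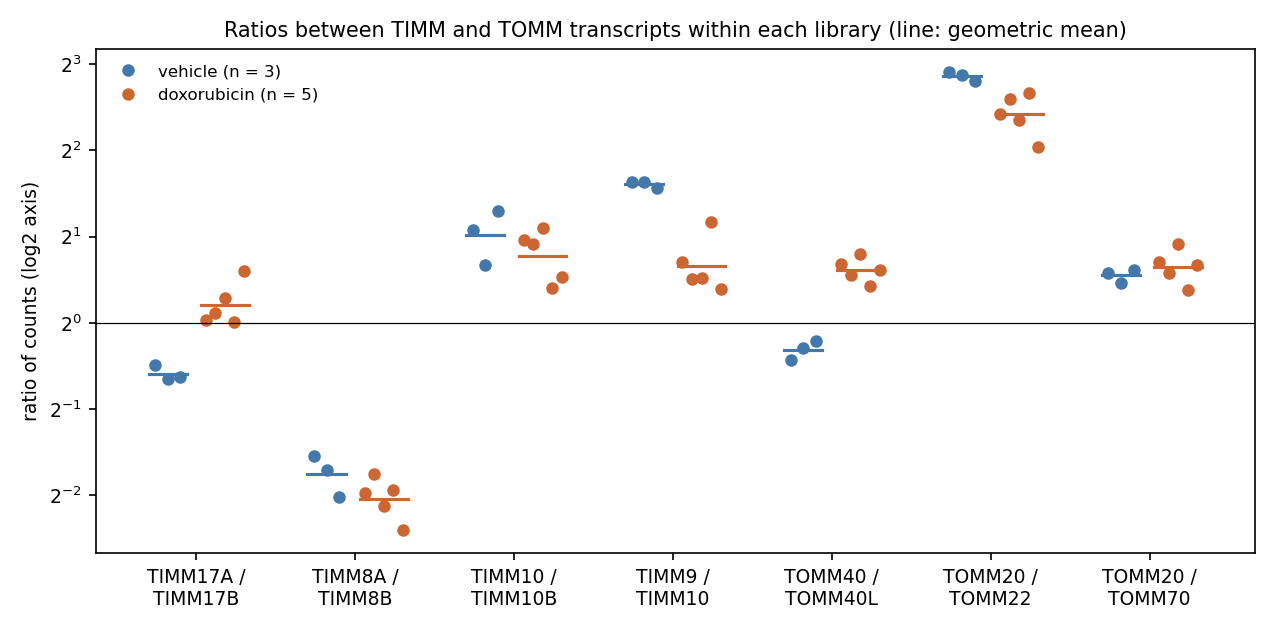
Ratio of the counts of 2 genes in each library (vertical log2 axis) for 7 pairs, vehicle in blue and doxorubicin in orange, with lines at geometric means. The groups are apart for TIMM17A over TIMM17B, TIMM9 over TIMM10, TOMM40 over TOMM40L and TOMM20 over TOMM22, and overlap for the other 3.

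The doxorubicin libraries differed among themselves in these genes. Doxorubicin 3 had the lowest value of the 5 for 15 of the 22 tested members, while it was the lowest library for 16.2% of all tested genes, and 19 members lay below the vehicle mean in it. The median of the members relative to the vehicle mean was −0.61 on the log2 scale in doxorubicin 3 and −0.28 to −0.20 in the other 4, where the median of all tested genes was within −0.03 to 0.02. Doxorubicin 5 was the highest of the 5 for 10 members and the lowest for 2, while it was the highest for 33.1% and the lowest for 33.1% of all tested genes. In every doxorubicin library 11 members were below the vehicle mean and 2, TIMM17A and TOMM40, were above it. The share of all tested genes below or above the vehicle mean in this way is not given here. These counts of members are therefore description only. The mitochondrial DNA share was 12.8% in doxorubicin 3, within the range of 8.70% to 16.6% of the group.

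**Figure D4:**
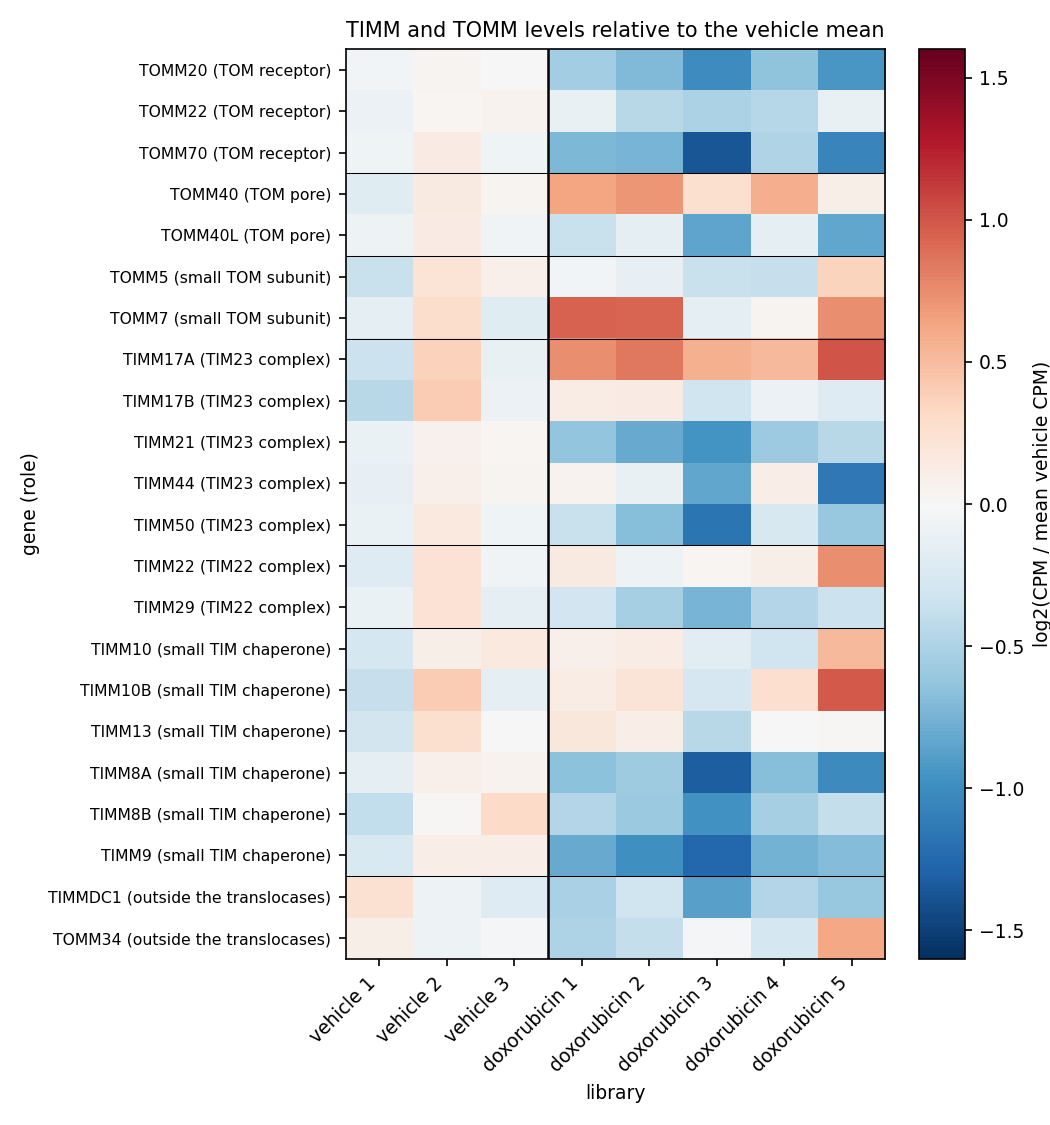
Log2 of CPM over the mean vehicle CPM (colour, blue lower and red higher) for the 22 tested TIMM and TOMM genes (rows, by role) in each of the 8 libraries (columns, with a line between vehicle and doxorubicin). The column of doxorubicin 3 holds the lowest value of the 5 for 15 genes, and the rows of TIMM17A and TOMM40 are red in all 5 doxorubicin columns.

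Position and length were set beside the fold changes as a description. The members lay in gene-dense regions, with a median of 24 protein-coding genes within 500 kb against 13 for the 14415 tested genes placed on a chromosome. Among those that fell, TIMM21, TOMM20, TIMM9 and TOMM70 had 7, 9, 9 and 11 such neighbours and TIMM8A had 23. Across the 22 members the Spearman correlation of the log2 fold change with this density was 0.32, and across the 14415 it was 0.29. With gene length it was −0.53 across the members and −0.09 across all 14938 tested genes. Genes are not independent replicates and share their libraries. With the density trend removed from each library, 9 members were lower and 1 higher, against 8.8% and 10.5% of all tested genes. TOMM20, TOMM70, TIMM9, TIMM8A and TIMM17A passed in that fit, and TIMM21 did not (adjusted p = 0.0668 in edgeR).

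Other genes of protein import were read from a list of 35, of which 34 were found and 33 tested. Of these 6 fell, 1 rose and 26 did not pass, with a median log2 fold change of −0.30. The share called in either direction, 7 of 33, also lay near the 24.9% of all tested genes. By direction it was 6 of 33 lower, against 11.3%, and 1 of 33 higher, against 13.6%. Of the 7 processing peptidases, which trim precursors after import, 3 fell. PMPCB, the catalytic subunit of the matrix processing peptidase, was at 173, 207 and 194 CPM in vehicle and at 109, 111, 70.7, 133 and 96.3 CPM after doxorubicin (log2 fold change −0.88, SE 0.20, adjusted p = 0.0159 in edgeR). Its partner subunit PMPCA had 139 ± 19.3 and 163 ± 33.6 CPM (SD, n = 3 and n = 5) and did not pass (log2 fold change 0.23, SE 0.21). The inner membrane peptidases IMMP2L and IMMP1L fell by 1.08 (SE 0.20) and 0.61 (SE 0.17) on the log2 scale. IMMP2L was at 11.4, 12.2 and 11.8 CPM in vehicle and at 6.33, 5.46, 5.09, 6.85 and 4.25 CPM after doxorubicin. Its call held in all 17 alternatives run, with adjusted p up to 0.0467 in them.

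In the import motor, DNAJC19, a J-protein that drives HSPA9 and whose loss in people causes cardiomyopathy with ataxia, fell from 83.7 ± 8.26 to 50.6 ± 9.11 CPM (SD, n = 3 and n = 5; log2 fold change −0.73, SE 0.17, adjusted p = 0.0183 in edgeR). HSPA9 itself, the mitochondrial HSP70 that pulls precursors in, had 592 ± 19.5 and 401 ± 94.5 CPM and did not pass (−0.56, SE 0.22, adjusted p = 0.0861 in edgeR). DNLZ, which keeps HSPA9 soluble, rose 2.63-fold, from 2.64, 3.81 and 1.85 CPM to 10.04, 6.21, 4.67, 5.24 and 10.4 CPM (adjusted p = 0.0259 in edgeR). Of the outer membrane insertases MTCH2 fell by 0.64 (SE 0.16, adjusted p = 0.0201 in edgeR) and MTCH1 was at 0.13 (SE 0.14). None of the 4 genes of the SAM complex and metaxins, which insert barrel proteins such as TOMM40, passed in edgeR, though 3 had an unadjusted p under 0.05. DESeq2 called 0 and limma voom 3 of them, and all 4 fold changes were negative. Of all tested genes 40.8% had an unadjusted p under 0.05, DESeq2 called 33.2% and limma voom 54.1%. None of the 3 genes of the disulfide relay, which folds the small TIM chaperones, passed in edgeR, though 2 had an unadjusted p under 0.05 and DESeq2 and limma voom each called 2. The log2 fold change was 0.05 for CHCHD4, 0.99 for GFER and −0.91 for AIFM1.

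HSPA8, the cytosolic HSP70 that hands precursors to TOMM70, fell by 0.66 (SE 0.19, adjusted p = 0.0337 in edgeR), and the other 5 genes of cytosolic delivery did not pass in edgeR. DESeq2 called 2 and limma voom 4 of these 6, against 33.2% and 54.1% of all tested genes. PINK1, the kinase that gathers at TOM on damaged mitochondria, had 717 ± 61.7 and 593 ± 104 CPM and did not pass (adjusted p = 0.337 in edgeR). Without vehicle 1, vehicle 2 or vehicle 3 a single gene of the list passed as lower in each fit (IMMP2L), where 2.04%, 5.57% and 2.42% of all tested genes were lower. Without doxorubicin 5 it was 10 genes, where 15.4% of all tested genes were lower. The calls of PMPCB, DNAJC19, MTCH2, IMMP1L and HSPA8 were each lost in all 3 fits without a vehicle library (adjusted p 0.0561 to 0.124) and with library size only (0.0514 to 0.241), those of IMMP1L and HSPA8 also without doxorubicin 2 (0.0559 and 0.0581) and that of HSPA8 without doxorubicin 3 (0.0514) or 4 (0.0518) and with no filter (0.0702). The call of DNLZ was lost without vehicle 1 (0.101) or vehicle 3 (0.108), and those of DNAJC19, IMMP1L and HSPA8 with the density trend removed (0.0938 to 0.177).

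**Figure D5:**
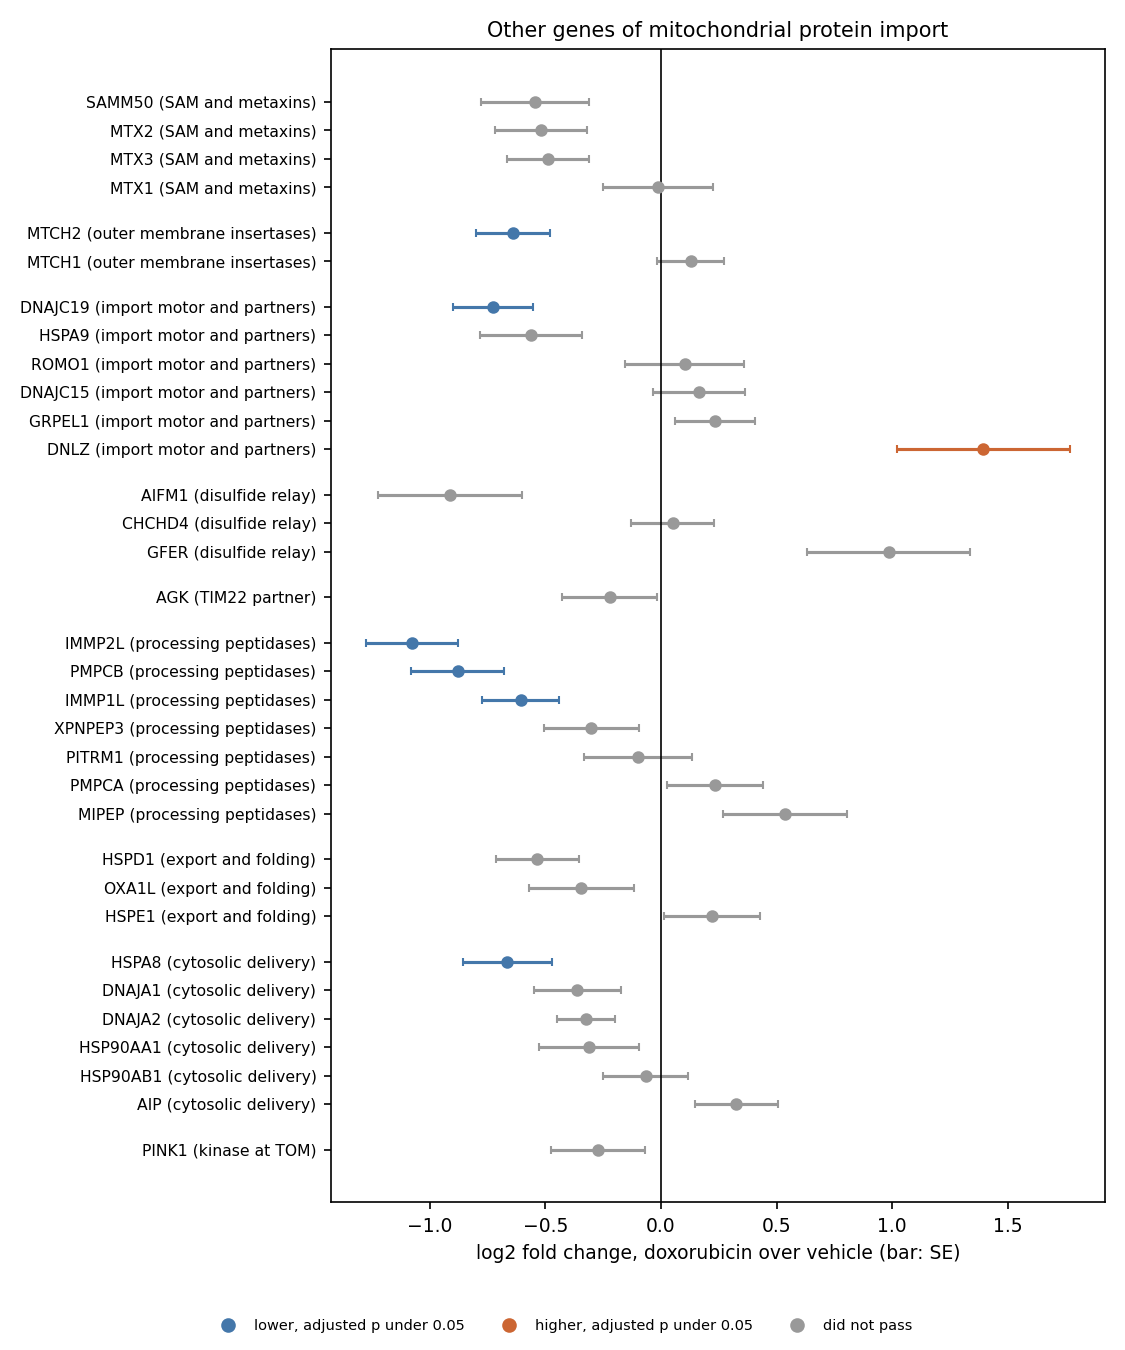
Log2 fold change of doxorubicin over vehicle (horizontal axis, bars are standard errors) for the 33 tested other genes of mitochondrial protein import, grouped by step. The 6 blue points fell, DNLZ in orange rose, and the 26 grey points did not pass.

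The mitochondrial ribosomal proteins, another family whose products build and serve the organelle, were tested for 75 genes, of which 3 were higher, 22 were lower and 50 did not pass in edgeR (13.6% of all tested genes were higher and 11.3% lower), with a median log2 fold change of −0.40. The TIMM and TOMM genes had a median of −0.31, and the difference between the families was not tested.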

How the data were processed

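The authors deposited raw counts per gene for 8 heart libraries, with gene names, coordinates and lengths. The sources used here name no aligner, counter or strand setting. Libraries were made from total RNA with a SMARTER mRNA kit, per the labels' protocols. Columns were matched to samples by title, and 0 count columns were left unused. Of 31014 rows, 30335 identifiers matched RefSeq on Sscrofa11.1, all with the same start and end. Pairs within a group differed by 18.5 to 308 times sampling noise (chi-square per degree of freedom), so each library was counted on its own.

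Counts were fitted over all genes in R 4.3.3 with edgeR 4.0.16 (filterByExpr with minimum count 10 and total 15, TMM, robust quasi-likelihood, treatment as the only term, two-sided), which tested 14938 genes. SE came from the log2 fold change and its F statistic. CPM used TMM-adjusted library sizes. Ratios used counts plus 0.5. Alternatives were RLE factors, library size only, TMM on genes other than mitochondrial, haemoglobin and the top 20 by abundance, no filter, CPM above 1 in 3 libraries, DESeq2 1.42.0, voom with quality weights in limma 3.58.1, the replicate number as a block, removal of each library's lowess trend (span 0.3) with protein-coding genes within 500 kb (genes on unplaced scaffolds untouched), and each library left out. The fit was tested on simulated data. Figures used matplotlib 3.10.9.

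Members and lists were chosen with earlier results of these data known. Every member was described; values per library were given for members past the threshold and 10 core subunits (TIMM23 had no row of that name), and import genes past the threshold were named, up to 8. The pair TIMM23 with TIMM22 was left out of the ratios for the same reason, and PAM16 had no row of that name either. An item of the import list is not reported here.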

Additional observations from a re-analysis of the deposited data

Results flagged for a closer look

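In 30 sets of 5 doxorubicin values (22 genes, 7 ratios and the mitochondrial DNA share), 1 held a library far from the others by Dixon's test. TIMM22 was at 22.5 CPM in doxorubicin 5, where the median of the group was 14.4 CPM. The gap to the nearest library was 0.784 of the range, above the critical value of 0.71. Chance flags about 1 set in 20. Summed fibroblast markers were also highest in doxorubicin 5, at 31363 CPM, and their part in this value was not tested.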

How the results depend on the processing

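TIMM9 and TIMM17A kept their calls in all 9 alternatives other than leaving out a library. In those 9, TOMM20, TOMM70, TIMM8A and TIMM21 did so except with library size only, and TIMM21 also failed without the density trend. RLE factors, TMM without abundant genes, no filter and the CPM filter left the counts of TIMM and TOMM genes within 1.5 times. Library size only gave 3 higher and 1 lower of them and 8 and 1 of the other import genes (27.4% and 3.34% of all tested genes). DESeq2 gave 9 lower TIMM and TOMM genes, and 2 higher and 10 lower import genes (19% of all tested genes higher, 14.2% lower). With limma voom the counts were 3 and 9, and 5 and 14 (27.1% and 27%). With the density trend removed 9 TIMM and TOMM genes and 3 import genes were lower (8.8%). Over the fits without 1 library, 0 to 2 TIMM and TOMM genes were higher and 0 to 8 lower, and 0 to 2 and 1 to 10 import genes. In those fits 2.16% to 16.8% of all tested genes were higher and 2.04% to 15.4% lower. The cause of these changes was not tested, except that fewer samples were used in the last.

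Signs turned for members near 0. With library size only TIMM44 was at 0.042, TIMM13 at 0.34, TIMM17B at 0.29, TOMM5 at 0.27, TOMM22 at 0.036 and TOMM34 at 0.31 on the log2 scale. With voom TIMM13 was at 0.059, TIMM17B at 0.11 and TIMM10 at −0.10. Without the density trend TOMM5 was at 0.022, TIMM10 at −0.23 and TIMM10B at −0.16. With 1 library left out TIMM13 ran from −0.15 to 0.13, TIMM17B from −0.25 to 0.19, TOMM5 from −0.24 to 0.034, TIMM10 from −0.056 to 0.16 and TOMM34 from −0.28 to 0.034.

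The replicate numbers did not pair samples (correlations of deviations 0.04, 0.002 and −0.003). With the replicate block 1 member was higher and 6 lower, and TIMM17B was at 0.013; 1 import gene was higher and 7 lower, against 13.6% and 10.7% of all tested genes. TIMM50 passed in that fit (adjusted p = 0.0357) and HSPA8 did not (0.0807). Only doxorubicin 1 to 3 were compared for the best match of each vehicle library. Among them vehicle 2 and 3 matched their own number best, but at correlations near 0, and vehicle 1 matched doxorubicin 3.

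The mitochondrial DNA share differed by −13.4 to −11.4 percentage points with 1 library left out, always at the smallest p of that design, 0.0571 or 0.0952. No ratio changed direction with a pseudocount of 5 or with 1 library left out. None passed with a pseudocount of 5, where the smallest p of the exact permutation test set the same limit.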
